A study of Mus musculus with 96 samples.

Results

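Matrix metalloproteases (MMPs), ADAMTS proteases and tissue inhibitors of metalloproteases (TIMPs) were followed across 96 mouse RNA sequencing libraries of normal liver, liver organoids, primary liver tumours and metastases. The family was taken by symbol alone: every gene named Mmp, Adamts or Timp followed by a number was a member, which gave 46 of 34591 symbols in the count files, made up of 23 Mmp, 19 Adamts and 4 Timp genes. Levels are given as CPM, a gene's read count scaled to a library of 1000000 reads assigned to genes, with library sizes adjusted by the trimmed mean of M values (TMM) over all 96 libraries. CPM was not corrected for gene length, so levels were compared between groups for 1 gene at a time and not between genes. A mean of at least 1 CPM in at least 1 of the 14 groups was reached by 41 members. The other 5, Adamts19, Adamts20, Mmp1a, Mmp1b and Mmp21, stayed below that level in every group, and how reads that match both Mmp1a and its paralogue Mmp1b were counted is not given in the sources used here.

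There were 5 PPTR metastases (2 intestinal, 1 from lung, 1 peritoneal and 1 intrahepatic), 11 PPTR primary tumours and 9 PNR primary tumours. LCS-driven tumours gave 5 lung metastases, 3 peritoneal metastases and 10 primary tumours, and HBS1-derived tumours gave 3 HBS1_F2-driven peritoneal metastases, 2 HBS1_F2-driven primary tumours and 2 HBS1-driven primary tumours. The cultured groups were 19 LCS organoid libraries from 5 lines, 11 HBS organoid libraries from 6 lines, 4 libraries of the HBS1_F2 organoid line and 6 libraries of normal organoids. The 6 normal liver libraries were the tissue control. The labels do not spell out PPTR, PNR, LCS, HBS or F2, give no strain, genotype or age, and do not say how the driven tumours were raised. All libraries carry the same growth entry, a 3D stem cell culture, and no treatment. Organoids are cell clusters grown in a gel, and the HBS1_F2 group is a single line. Separate animals are not named, so the p-values below measure the spread between libraries, which may be technical. For LCS and HBS organoids, whose libraries were summed per line, the spread between lines enters instead.

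MMPs are zinc-dependent proteases, most of them secreted as inactive precursors, that cut collagens, other matrix proteins and many cell surface and signalling proteins. ADAMTS proteases are secreted, bind matrix through thrombospondin repeats and are known for processing procollagens, trimming large proteoglycans and cutting von Willebrand factor. TIMPs occupy the active site of these enzymes. In liver, stellate cells, fibroblasts, macrophages, neutrophils and biliary epithelium are known sources, so a level in a piece of tissue depends on its cell makeup. In bulk RNA, fewer cells of a type and less RNA per cell cannot be told apart.

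Reads assigned to genes ranged from 4393199 to 87058563 per library (median 29515946). The normal livers stood apart in their ribosomal repeat reads, which made up 10.67% to 25.83% of them, against 0.1589% to 6.304% in LCS-driven primaries, 0.9249% to 2.116% in PNR primaries and 0.2104% to 18.33% in PPTR primaries. LCS-driven peritoneal metastasis 1 was the shallowest library and had 34.92% of such reads. By the SD over genes of the log2 ratio between 2 libraries, LCS-driven primary 10 (1.10 to 1.57 against the others), LCS-driven primaries 2 and 8 (0.758 from each other, 1.25 to 1.67 from the rest), LCS-driven lung metastasis 4 (1.22 to 1.49, against 0.241 to 0.915 among the other 4), HBS1_F2-driven peritoneal metastasis 3 (1.26 and 1.31, against 0.497 between the other 2) and HBS1_F2 organoids 2 and 4 lay far from the rest of their groups. Several pairs of PNR primaries and LCS-driven lung metastases 1 and 2 matched each other closely. The defining hepatocyte genes summed to 48722 to 83506 CPM in normal liver and to 1.8 to 502 CPM in the LCS-driven lung metastases.

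The promoters of 5 members are shown because these genes, which include Mmp7, Mmp12 and Mmp13 described next, belong to the Mmp genes that lie near each other on mouse chromosome 9 and share a motif. Capitals mark the AP-1 motif, TGAGTCA or its reverse complement TGACTCA, which Jun and Fos proteins are known to bind. Each sequence is the 100 bases before the start of the gene, 5′ to 3′ on the + strand, from RefSeq on GRCm38.p6, at chr9:7272414-7272513 for Mmp13, chr9:7347274-7347373 for Mmp12, chr9:7445722-7445821 for Mmp3, chr9:7502242-7502341 for Mmp10 and chr9:7691990-7692089 for Mmp7.
Mmp13: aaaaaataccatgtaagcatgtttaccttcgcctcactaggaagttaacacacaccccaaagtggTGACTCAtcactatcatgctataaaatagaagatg
Mmp12: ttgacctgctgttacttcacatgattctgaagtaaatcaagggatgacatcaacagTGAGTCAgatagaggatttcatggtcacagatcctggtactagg
Mmp3: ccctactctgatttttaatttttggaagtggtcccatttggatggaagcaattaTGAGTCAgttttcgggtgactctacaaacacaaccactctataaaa
Mmp10: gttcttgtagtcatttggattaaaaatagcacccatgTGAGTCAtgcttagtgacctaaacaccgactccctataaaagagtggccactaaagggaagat
Mmp7: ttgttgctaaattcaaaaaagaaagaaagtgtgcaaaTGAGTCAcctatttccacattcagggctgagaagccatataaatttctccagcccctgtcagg
The motif began 35 bases before the start in Mmp13, 44 in Mmp12, 46 in Mmp3 and 63 in both Mmp10 and Mmp7. Windows of 300 bases, from 250 before to 50 after the start, were at hand for 32 of the 46 members. The motif, searched on both strands, was present in 7 of the 10 chromosome 9 Mmp members with a window, the other 2 being Mmp1a and Mmp1b, and in 0 of the other 22 members. Of all 32851 windows in the table, 1709 (5.2%) held it. TATAAA, the core of the TATA box, was searched on the gene's own strand as well. The windows of 10 members held it, those of all 5 genes shown among them, and 8.32% of all windows did. In Mmp12 the match lies outside the 100 bases shown, and in Mmp3 it lies at their very end. Mmp12 and Mmp7 each have another window, which held neither motif. These matches describe letters in a window, and no binding was measured.

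**Figure D1:**
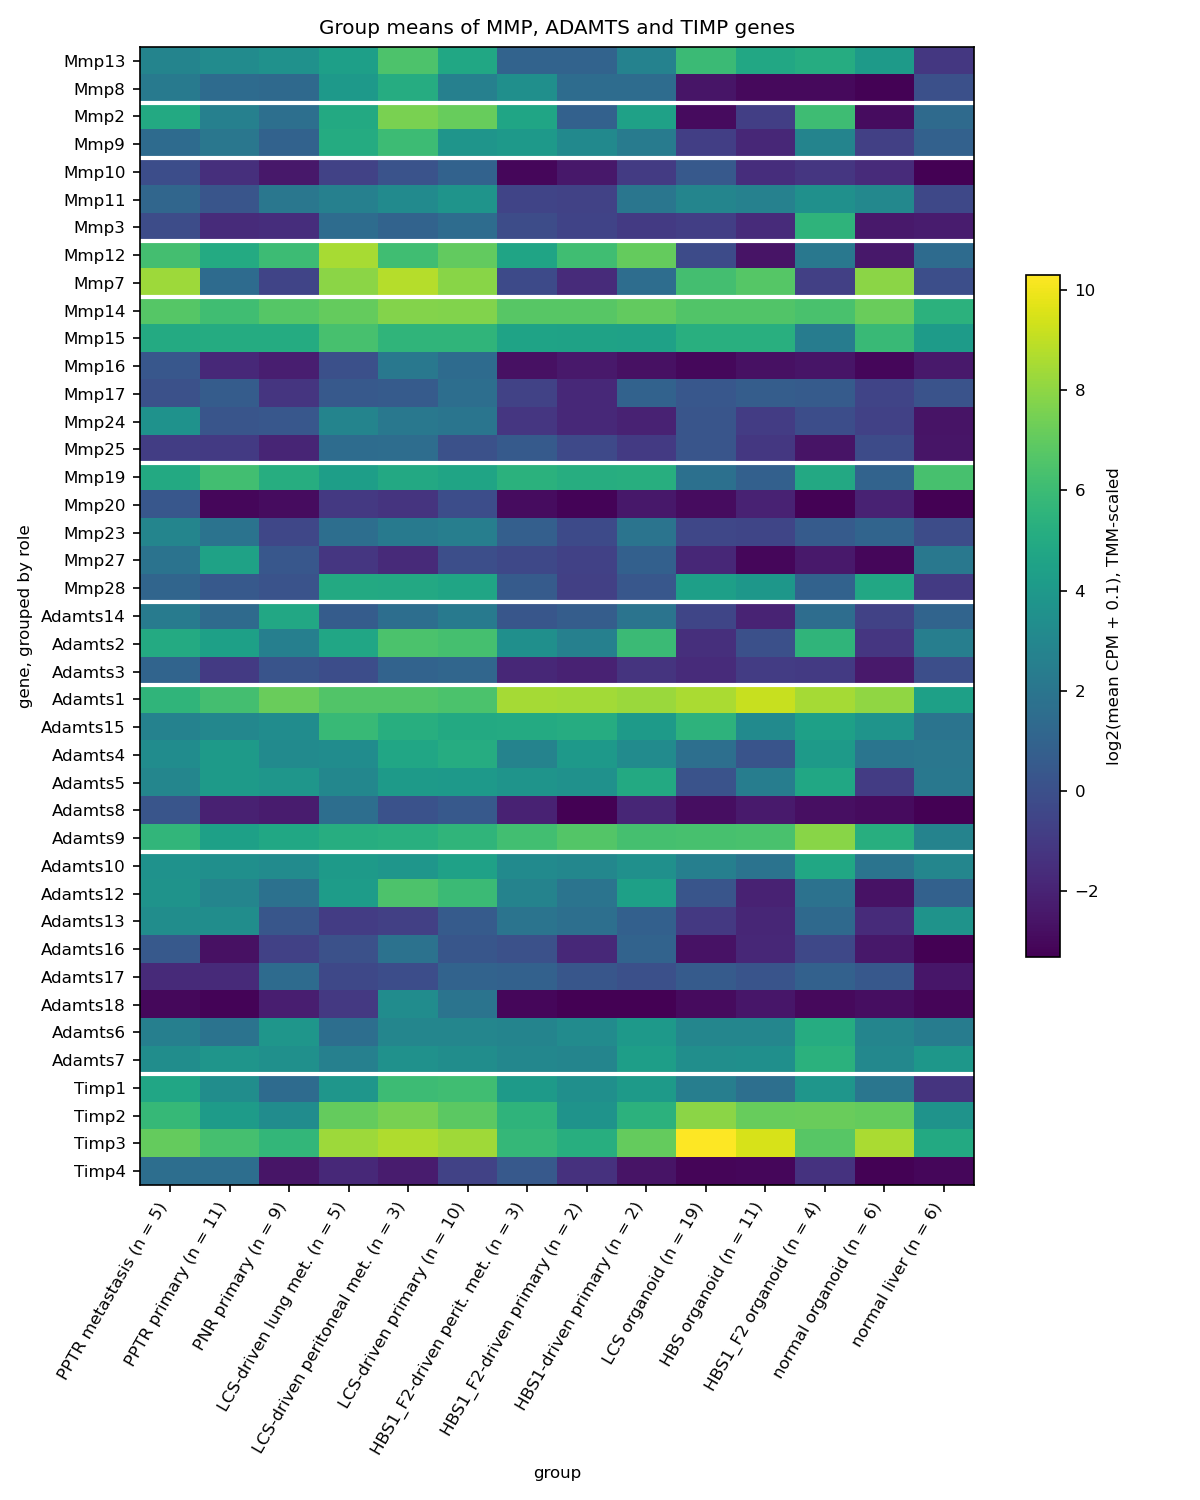
Mean level of 41 members in the 14 groups, as log2(mean CPM + 0.1). Each row is a gene, grouped by role, and each column a group. Rows are to be read along, not against each other. The Mmp2, Mmp9, Mmp12 and Adamts2 rows are high in LCS-driven tumours and low in LCS, HBS and normal organoids, but not in HBS1_F2 organoids. The Timp2 and Timp3 rows are highest in LCS organoids and the Adamts1 row in HBS organoids.

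Over the 41 members, the highest group mean fell most often in LCS-driven tumours. LCS-driven peritoneal metastases held the highest mean of 12 members, LCS-driven primaries of 6 and LCS-driven lung metastases of 5. HBS1_F2 organoids held 5, PPTR metastases 3, and PPTR primaries, PNR primaries, LCS organoids and normal liver 2 each. The remaining 2 were Adamts1, highest in HBS organoids, and Adamts5, highest in HBS1-driven primaries. The means of LCS-driven peritoneal metastases rest on 3 libraries, among them the shallowest of the series. Only 1 member was called higher there than in LCS-driven primaries. The same ranking over all genes is not given here. Members at or above 1 CPM numbered 37 in LCS-driven primaries, 31 in PPTR primaries, 29 in PNR primaries, 24 in LCS organoids, 20 in HBS organoids, 19 in normal organoids and 22 in normal liver.

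Mmp7 encodes matrilysin, the smallest MMP, which is known as a product of glandular epithelium and lacks the hemopexin domain of most other members. Mmp7 had 553 and 357 CPM in the intestinal PPTR metastases and 517 CPM in the lung one. It had 62.3 CPM in the peritoneal and 80.1 CPM in the intrahepatic PPTR metastasis. The lowest, median and highest were 0.0413, 0.601 and 15.5 CPM in the 11 PPTR primaries. The lowest metastasis lay above the highest primary. No list of intestinal markers was looked at, and the part of the host organ was not tested. Mmp7 had 460, 311, 41.8, 174 and 261 CPM in LCS-driven lung metastases, 844, 230 and 277 CPM in LCS-driven peritoneal metastases and 20.7 to 700.3 CPM (median 163) in LCS-driven primaries. In the 9 PNR primaries it ranged from 0 to 3.25 CPM, in the 7 HBS1- and HBS1_F2-driven tumours from 0.0881 to 5.25 CPM and in the 6 normal livers from 0 to 1.94 CPM. Every LCS-driven tumour and every PPTR metastasis was therefore above every PNR, HBS1-derived and normal liver library.

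Cultured lines did not follow a single pattern for Mmp7. The line means were 0.00695 CPM in LCS1, 3.31 CPM in LCS2, 13.7 CPM in LCS3, 178 CPM in LCS4 and 212 CPM in LCS5, taken over 3 or 4 libraries each. HBS lines ranged from 22.8 CPM in HBS2 to 177 CPM in HBS1, and normal organoids from 96.4 to 476 CPM. The 4 HBS1_F2 organoid libraries had 0.385, 1.43, 0.0282 and 0.112 CPM, all below the 177 CPM mean of the HBS1 line. This is a single line on each side, so the difference has no replicate check. Mmp28 (epilysin, a secreted MMP known from epithelia) also had low values in HBS1_F2 organoids. It ranged from 15.1 to 37.8 CPM over all LCS-driven tumours, from 5.73 to 45.1 CPM in LCS organoids, from 6.67 to 28.8 CPM in HBS organoids and from 6.35 to 55.7 CPM in normal organoids. In HBS1_F2 organoids it ranged from 1.2 to 2.31 CPM, and in PPTR, PNR and HBS1-derived tumours and normal liver together from 0 to 3.22 CPM.

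**Figure D2:**
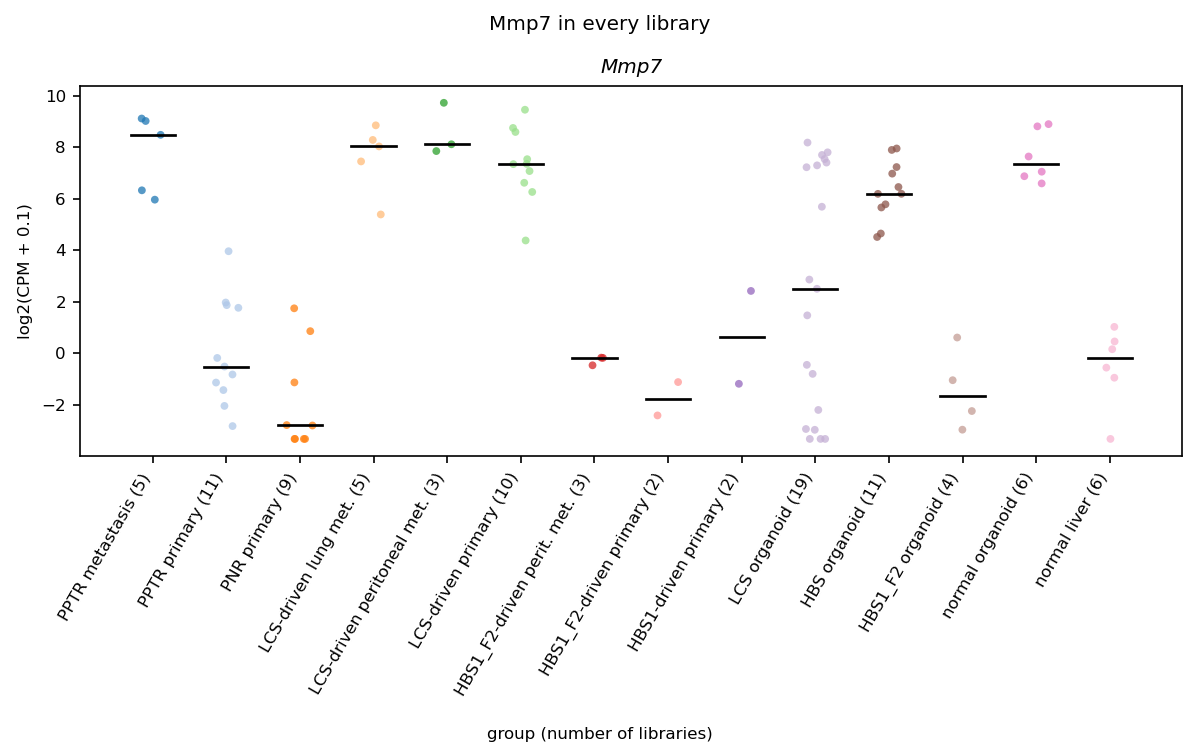
Mmp7 level in every library, by group, as log2(CPM + 0.1), with 1 point per library and a black bar at the group median. The 5 PPTR metastases sit between 62.3 and 553 CPM, all above the 11 PPTR primaries, and LCS organoids run from 0 to 290 CPM.

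The first question is how the primary tumours differ from normal liver. LCS-driven primaries carried the broadest difference. A gene was called when its adjusted p from edgeR's quasi-likelihood test, corrected over all genes tested by the Benjamini-Hochberg method, was under 0.05. Of 46 members, 38 passed the filter on low counts in LCS-driven primaries against normal liver, and 32 of them rose and 4 fell (n = 10 and 6). Over all 16426 genes tested, 35.9% were called higher and 28.8% lower. The median log2 fold change was 3.01 over these members and 0.129 over all genes, and members that passed only through their level in the tumours had to differ.

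Both gelatinases, which cut denatured collagen and basement membrane collagen, rose in LCS-driven primaries. Mmp2 had a lowest, median and highest of 36.1, 73.3 and 777 CPM in LCS-driven primaries, against 0.894, 2.15 and 6.41 CPM in normal liver. The groups did not overlap, and the log2 fold change was 5.60 ± 0.85 (SE; edgeR adjusted p = 2.45e-05). Mmp9 averaged 13.5 ± 6.79 CPM in LCS-driven primaries and 1.81 ± 1.07 CPM in normal liver (SD, n = 10 and 6; log2 fold change 2.76 ± 0.40). Both collagenases that passed the filter rose, among them Mmp13, the main fibrillar collagenase of mice, with 2.82, 10.6 and 141 CPM (lowest, median, highest) in LCS-driven primaries against 0.227, 0.383 and 0.464 CPM in normal liver (log2 fold change 6.16 ± 0.93, edgeR adjusted p = 1.95e-05). All 3 stromelysins (Mmp3, Mmp10 and Mmp11) rose. Mmp10 averaged 1.82 CPM in LCS-driven primaries and had no read in any normal liver, which makes it at least 36.7-fold higher, measured against a floor of 3 counts over the whole liver group. On the same floor Adamts8 was at least 27.2-fold and Adamts16 at least 23.5-fold higher.

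Matrilysin and macrophage elastase also rose. Mmp7 had a log2 fold change of 7.94 ± 0.96 in LCS-driven primaries over normal liver (edgeR adjusted p = 2.54e-06), with no overlap of the groups. Mmp12, the elastase that macrophages are known to secrete, had 15.9, 121 and 275 CPM (lowest, median, highest) in LCS-driven primaries and 0.745, 2.21 and 6.38 CPM in normal liver, and its log2 fold change was 5.42 ± 0.61 (edgeR adjusted p = 1.22e-06). All 6 membrane-type MMPs rose, and they include Mmp14, the collagenase at the cell surface that is known to activate the Mmp2 precursor. Mmp14 averaged 210 ± 107 CPM in LCS-driven primaries and 43.6 ± 20.1 CPM in normal liver. Mmp24, a transmembrane type, had the largest change of the 6, from a low level, with 3.81 ± 2.3 CPM in LCS-driven primaries against 0.0671 ± 0.106 CPM in normal liver (log2 fold change 5.40 ± 0.82, edgeR adjusted p = 5.58e-06). Mmp28 was even across tumours, with 15.1 to 37.8 CPM in LCS-driven primaries and 0 to 0.682 CPM in normal liver (log2 fold change 5.78 ± 0.42, edgeR adjusted p = 1.21e-08).

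Among the ADAMTS genes, all 6 proteoglycanases that passed the filter rose, as did 2 of the 3 procollagen N-proteinases, Adamts2 and Adamts3. Adamts12, which is known to cut cartilage oligomeric matrix protein, had 27.1, 57.7 and 140.5 CPM in LCS-driven primaries and 1.04, 1.63 and 2.65 CPM in normal liver (log2 fold change 4.96 ± 0.35, edgeR adjusted p = 1.33e-08). Adamts2, which removes the amino-terminal propeptide of fibrillar collagens, averaged 77.7 ± 47.6 CPM in LCS-driven primaries and 5.49 ± 1.54 CPM in normal liver. The 3 TIMPs that passed the filter rose with the proteases. Timp1, an inhibitor that cytokines are known to induce, had 17.6, 62.6 and 190.5 CPM in LCS-driven primaries and 0.0568, 0.233 and 0.698 CPM in normal liver, a log2 fold change of 7.70 ± 0.61 (edgeR adjusted p = 1.89e-08). Timp3, the inhibitor held in the matrix, averaged 334 ± 123 CPM in LCS-driven primaries against 30.5 ± 8.76 CPM in normal liver, and Timp2 averaged 119 ± 69.3 CPM in LCS-driven primaries against 12.8 ± 2.94 CPM in normal liver.

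The 4 members that fell in LCS-driven primaries were Adamts13, Mmp27, Mmp19 and Adamts7. Adamts13 encodes the protease that cuts von Willebrand factor and is known to be made by stellate cells in liver. It averaged 1.4 ± 1.2 CPM in LCS-driven primaries and 12.8 ± 6.65 CPM in normal liver (log2 fold change -3.36 ± 0.50, edgeR adjusted p = 2.12e-05), and the groups overlapped. Mmp19, a secreted MMP that cuts basement membrane proteins, ranged from 11.7 to 59.7 CPM in LCS-driven primaries and from 67.3 to 108 CPM in normal liver without overlap (log2 fold change -1.87 ± 0.27, edgeR adjusted p = 1.31e-05). Fibroblast marker genes, a list that also covers stellate cells, moved the same way as the risers and opposite to Adamts13. All 8 were called higher, and their summed level was 2420 to 82122 CPM in LCS-driven primaries and 94.0 to 258 CPM in normal liver. Biliary markers were also higher, at 2433 to 8030 CPM in LCS-driven primaries against 44 to 165 CPM in normal liver. Hepatocyte and endothelial markers moved the same way as the members that fell. Of 5 hepatocyte markers 4 were called lower, with sums of 486 to 35862 CPM in LCS-driven primaries and 48722 to 83506 CPM in normal liver, and of 5 endothelial markers 4 were called lower, with sums of 80.0 to 285 CPM in LCS-driven primaries and 330 to 548 CPM in normal liver. Of the 7 macrophage markers 1 was called higher and 4 lower, with sums of 439 to 1266 CPM in LCS-driven primaries and 434 to 2206 CPM in normal liver. Their part in these results was not tested. With the share of ribosomal repeat reads as a covariate, 10 members were called higher and 1 lower in place of 32 and 4. Mmp7, Mmp12, Mmp13, Mmp28, Timp1, Timp3, Adamts2, Adamts12, Adamts13, Mmp3 and Mmp9 were the 11 still called. Since that share separates all LCS-driven primaries from all livers, its effect and the effect of group cannot be told apart. Without LCS-driven primaries 2 and 8, 29 members were higher and 4 lower, and the share of all genes called in that setting is not given here.

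**Figure D3:**
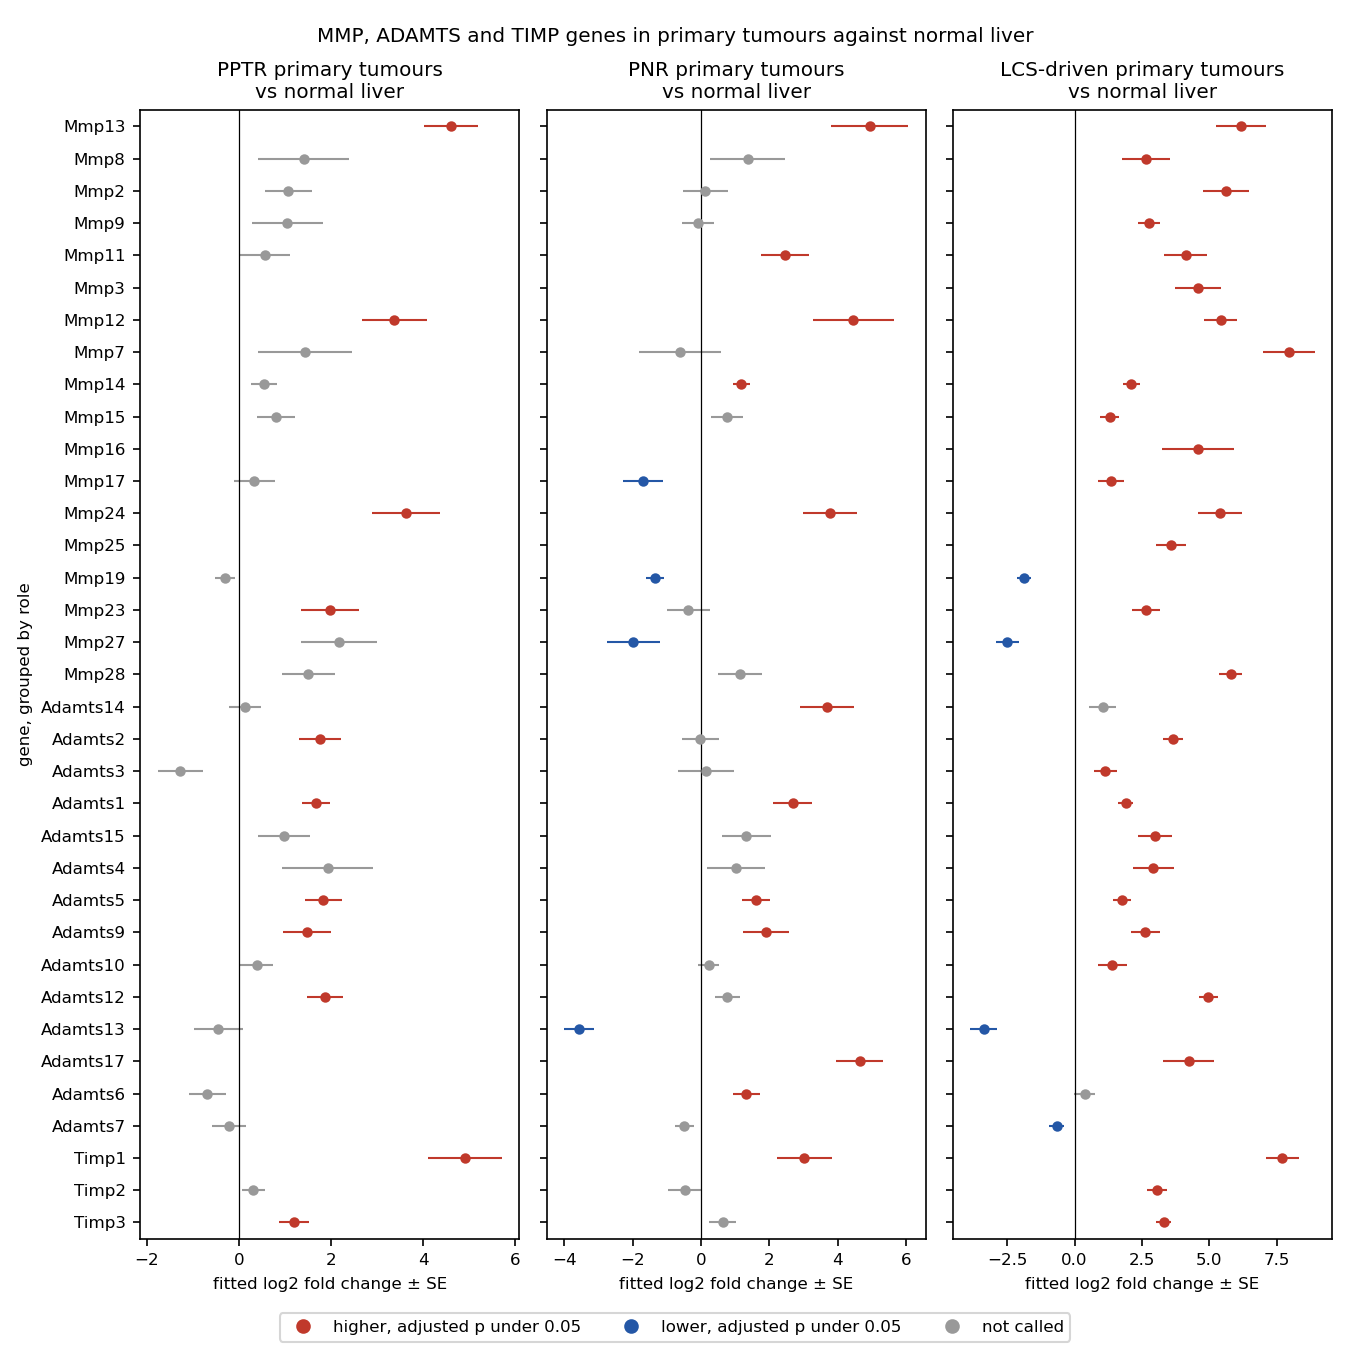
Fitted log2 fold change over normal liver for each member in PPTR, PNR and LCS-driven primaries, with bars of 1 SE, panels with their own x scale, red points called higher, blue points lower and grey points not called. Members with 3 or fewer pooled liver counts are left out. Timp1, Mmp13, Mmp12 and Mmp24 are red in all 3 panels, and Adamts13 and Mmp19 are blue in the PNR and LCS-driven panels.

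PPTR primaries differed from normal liver in fewer members. Of 31 members that passed the filter, 11 rose and 0 fell (n = 11 and 6), where 18.3% of all 15305 genes were called higher and 14.7% lower. At an unadjusted p under 0.05 edgeR placed 1 member lower, beside 3050 of all genes, and DESeq2 called 1 member lower. Timp1 had 1.07, 6.2 and 41.6 CPM (lowest, median, highest) in PPTR primaries and 0.0568, 0.233 and 0.698 CPM in normal liver, with a log2 fold change of 4.90 ± 0.81 (edgeR adjusted p = 0.000237). Mmp13 had 2.96, 5.77 and 23.3 CPM in PPTR primaries and 0.227, 0.383 and 0.464 CPM in normal liver (log2 fold change 4.61 ± 0.59, edgeR adjusted p = 2.81e-05). Neither gene's groups overlapped. Mmp12 averaged 31.6 ± 33.9 CPM in PPTR primaries against 2.67 ± 1.96 CPM in normal liver (log2 fold change 3.37 ± 0.71, edgeR adjusted p = 0.00188), with some overlap. The proteoglycanases Adamts1, Adamts5 and Adamts9 rose, and Adamts1 ranged from 42.6 to 138 CPM in PPTR primaries and from 9.53 to 32.4 CPM in normal liver (log2 fold change 1.67 ± 0.30, edgeR adjusted p = 0.000566).

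Several members stayed within their spread in PPTR primaries. Mmp7 averaged 2.62 CPM in PPTR primaries and 0.871 CPM in normal liver, Timp2 17.8 CPM in PPTR primaries and 12.8 CPM in normal liver, Mmp2 6.06 CPM in PPTR primaries and 2.55 CPM in normal liver, and Mmp14 70.4 CPM in PPTR primaries and 43.6 CPM in normal liver, none of them called. Of the fibroblast markers, 5 of 8 were called higher and 0 lower, with sums of 233 to 1418 CPM in PPTR primaries and 94.0 to 258 CPM in normal liver, and 0 of 7 macrophage markers rose while 3 fell. With the ribosomal share as a covariate 3 members remained called higher, Mmp13, Mmp24 and Timp1, and 1 was called lower.

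PNR primaries had 12 members higher and 4 lower than normal liver out of 32 that passed the filter (n = 9 and 6), against 27.3% and 21.9% of all 15739 genes. The procollagen N-proteinase Adamts14 had 76.6, 63.7, 38.2, 23.4, 23.9, 28.2, 1.2, 4.57 and 2.46 CPM in the 9 PNR primaries, against 1.04 to 3.36 CPM in normal liver. PNR primaries 1 to 6 were high and 7 to 9 low, so that the groups overlapped, and the log2 fold change was 3.70 ± 0.79 (edgeR adjusted p = 0.00142). Mmp13 and Mmp12 were uneven in another way: Mmp13 had 0.359, 3.05 and 36.2 CPM (lowest, median, highest) in PNR primaries (log2 fold change 4.94 ± 1.13, edgeR adjusted p = 0.00198), and Mmp12 had 1.15, 15.2 and 234 CPM (4.46 ± 1.20, edgeR adjusted p = 0.0063). Mmp7 and Mmp12 summed to 122, 176 and 234 CPM in PNR primaries 4 to 6 and to at most 20.3 CPM in the others. Collagenases, Mmp13 among them, summed to 26.4, 41.1 and 44.3 CPM there and to at most 6.22 CPM in the others. PNR primaries 4 to 6 matched each other closely (SD of the log2 ratio 0.223 to 0.306), so they may not be independent. Adamts17 ranged from 0.479 to 4.87 CPM in PNR primaries and from 0 to 0.227 CPM in normal liver. Mmp14 was even, with 75.4 to 145 CPM in PNR primaries and 18 to 73.1 CPM in normal liver (log2 fold change 1.18 ± 0.26, edgeR adjusted p = 0.00153).

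Adamts13 fell furthest in PNR primaries, with 0.384 to 2.22 CPM against 3.43 to 22.1 CPM in normal liver (log2 fold change -3.58 ± 0.43, edgeR adjusted p = 1.54e-05). Its substrate, von Willebrand factor (Vwf), fell as well, with 8.1 CPM in PNR primaries and 41.4 CPM in normal liver (-2.43 ± 0.46, edgeR adjusted p = 0.000539). Mmp19 had 19.6 to 65.9 CPM in PNR primaries and 67.3 to 108 CPM in normal liver (log2 fold change -1.34 ± 0.26, edgeR adjusted p = 0.000665). Vwf is also an endothelial gene, and 3 of the 5 endothelial markers fell, with sums of 76.9 to 565 CPM in PNR primaries and 330 to 548 CPM in normal liver. Of the 5 hepatocyte markers 3 fell, with sums of 8850 to 24573 CPM in PNR primaries and 48722 to 83506 CPM in normal liver. Of the fibroblast markers 2 rose and 2 fell, and of the 7 macrophage markers 6 fell, with sums of 54.5 to 366 CPM in PNR primaries and 434 to 2206 CPM in normal liver. Their part was not tested. With the ribosomal share as a covariate 0 members were called in either direction. Since that share separates all PNR primaries from all livers, the effect of group and the effect of that share cannot be told apart. The library identifiers fall into blocks by their first digits, and PNR primaries share no block with the livers. Group and block therefore cannot be told apart either.

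A direct comparison of the tumour types left the livers out. Of 32 members that passed the filter, 8 were higher and 6 lower in PPTR than in PNR primaries (n = 11 and 9). Over all genes 25% and 27.2% were called. PPTR and PNR primaries share no identifier block, so tumour type and block cannot be told apart. Mmp27 averaged 22.6 ± 38.9 CPM in PPTR primaries and 1.18 ± 1.49 CPM in PNR primaries, with PPTR primary 7 alone at 135 CPM (log2 fold change 4.16 ± 0.90, edgeR adjusted p = 0.000748). Adamts13 ranged from 1.36 to 28.1 CPM in PPTR primaries and from 0.384 to 2.22 CPM in PNR primaries (3.12 ± 0.53, edgeR adjusted p = 7.12e-05). Mmp19 averaged 73.5 ± 23.4 CPM in PPTR primaries and 35.6 ± 18 CPM in PNR primaries (1.03 ± 0.25, edgeR adjusted p = 0.00196). In the other direction, Adamts14 averaged 2.48 ± 1.31 CPM in PPTR primaries and 29.1 ± 26.7 CPM in PNR primaries (-3.57 ± 0.56, edgeR adjusted p = 3.28e-05). Adamts17 averaged 0.207 ± 0.168 CPM in PPTR primaries and 2.59 ± 1.47 CPM in PNR primaries, and Adamts6, which acts on fibrillin microfibrils, 3.54 ± 1.76 CPM in PPTR primaries and 14.1 ± 5.92 CPM in PNR primaries (-2.02 ± 0.33, edgeR adjusted p = 4.63e-05). Timp1 was higher in PPTR primaries (1.89 ± 0.65, edgeR adjusted p = 0.0188) but not when closely matching PNR libraries were summed (edgeR adjusted p = 0.072). Cell type markers moved with this comparison. Hepatocyte markers summed to 25440 to 110613 CPM in PPTR primaries and 8850 to 24573 CPM in PNR primaries, with 2 of 5 called higher and 1 lower. Macrophage markers summed to 207 to 1198 CPM in PPTR primaries and 54.5 to 366 CPM in PNR primaries, with 5 of 7 called higher and 0 lower. Of the fibroblast markers 5 of 8 and of the endothelial markers 3 of 5 were called higher, and 2 of 5 biliary markers lower. Their part was not tested.

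Next, the cultured organoids were compared with each other, with all libraries of a line summed so that a line is 1 replicate. LCS organoids (5 lines) against normal organoids (6 libraries) had 0 members higher and 0 lower of 24 that passed the filter, where 3.78% and 2.22% of all 15563 genes were called. At an unadjusted p under 0.05, edgeR placed 6 members higher and 1 lower, beside 2024 and 1569 of all genes. DESeq2 called 3 members higher (Mmp10, Mmp13 and Timp3) and 1 lower (Mmp23). Timp3 averaged 1258 ± 954 CPM in LCS lines and 388 ± 230 CPM in normal organoids, Mmp13 61.0 ± 38.2 CPM in LCS lines and 17.3 ± 15.1 CPM in normal organoids, and Mmp7 78.4 ± 101 CPM in LCS lines and 245 ± 172 CPM in normal organoids. The SDs were of the size of the differences. HBS organoids (6 lines) against normal organoids also had 0 members called of 22, with 0.00667% of all genes higher and 0.0734% lower. At an unadjusted p under 0.05 there were 4 members higher and 5 lower, beside 869 and 939 of all 14994 genes. DESeq2 called 0 higher and 2 lower, Adamts4 and Mmp7. Mmp7 averaged 78.9 ± 52.5 CPM in HBS lines and 245 ± 172 CPM in normal organoids, and Adamts4, a proteoglycanase, 1.06 ± 0.694 CPM in HBS lines and 3.84 ± 2.92 CPM in normal organoids.

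Between the cancer lines, LCS organoids had 2 members higher and 0 lower than HBS organoids (5 and 6 lines, 33 members passed the filter), with 3.77% and 1.31% of all genes called. Timp2, which besides inhibiting MMPs takes part in the activation of Mmp2 by Mmp14, ranged from 176 to 375 CPM in LCS lines and from 106 to 149 CPM in HBS lines without overlap. Its log2 fold change was 0.88 ± 0.19 (edgeR adjusted p = 0.0275), and the call was lost without LCS1 (edgeR adjusted p = 0.0654) or LCS3 (0.0507). The other was Mmp12, at 0.842 CPM in LCS lines and 0.0494 CPM in HBS lines, both means being below 1 CPM. The mean was carried by LCS5 at 2.48 CPM, while LCS1 to LCS4 had 0.0918 to 0.462 CPM. Mmp7 averaged 78.4 CPM in LCS lines and 78.9 CPM in HBS lines, and Timp3 1258 ± 954 CPM in LCS lines and 790 ± 438 CPM in HBS lines, neither called.

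LCS-driven primaries differed from the LCS organoids in most of the family. Of 40 members that passed the filter 25 rose and 3 fell in the tumours (10 tumours, 5 lines), while 31.5% and 30.4% of all 17540 genes were called. The members' median log2 fold change was 2.10, against 0.0487 over all genes. Mmp2 averaged 139 ± 226 CPM in LCS-driven primaries and 0.0394 ± 0.0516 CPM in LCS lines, and its lowest tumour, at 36.1 CPM, was far above its highest line, at 0.129 CPM (log2 fold change 11.66 ± 1.32, edgeR adjusted p = 2.52e-06). Adamts2 averaged 77.7 ± 47.6 CPM in LCS-driven primaries and 0.257 ± 0.234 CPM in LCS lines (8.16 ± 0.81, edgeR adjusted p = 7.88e-07), Mmp12 129 ± 76.1 CPM in LCS-driven primaries and 0.842 ± 1.27 CPM in LCS lines (7.20 ± 0.98, edgeR adjusted p = 1.66e-05), and Mmp9 13.5 ± 6.79 CPM in LCS-driven primaries and 0.548 ± 0.899 CPM in LCS lines (4.56 ± 0.82, edgeR adjusted p = 0.000204). Mmp8, the collagenase that neutrophils are known to store, averaged 6.13 ± 7.55 CPM in LCS-driven primaries and 0.086 ± 0.163 CPM in LCS lines. All 3 procollagen N-proteinases, both gelatinases and 4 of 6 membrane-type MMPs rose.

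The 3 members that fell were Adamts1, Timp3 and Timp2. Adamts1, a proteoglycanase that trims versican, ranged from 52.7 to 157 CPM in LCS-driven primaries and from 158 to 654 CPM in LCS lines (log2 fold change -2.21 ± 0.28, edgeR adjusted p = 7.98e-06). Timp3 averaged 334 ± 123 CPM in LCS-driven primaries and 1258 ± 954 CPM in LCS lines (-1.99 ± 0.39, edgeR adjusted p = 0.000448). Timp2 averaged 119 ± 69.3 CPM in LCS-driven primaries and 244 ± 80.1 CPM in LCS lines (-1.11 ± 0.36, edgeR adjusted p = 0.014), a call lost without LCS3 (0.0573). Timp1 went the other way, with 17.6 to 190.5 CPM in LCS-driven primaries and 1.84 to 8.54 CPM in LCS lines (3.68 ± 0.54, edgeR adjusted p = 3.27e-05). Mmp28 and Mmp15 differed by less than their spread: Mmp28 averaged 25.8 CPM in LCS-driven primaries and 20.1 CPM in LCS lines, and Mmp15, a transmembrane type, 48.8 CPM in LCS-driven primaries and 44 CPM in LCS lines.

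Markers of non-epithelial cells separated these groups. All 8 fibroblast markers, all 7 macrophage markers and all 5 endothelial markers were called higher in the tumours. The fibroblast sum was 2420 to 82122 CPM in LCS-driven primaries and 0.67 to 13.2 CPM in LCS organoid libraries, and the macrophage sum 439 to 1266 CPM in LCS-driven primaries and 3.28 to 60.4 CPM in LCS organoid libraries. Their part in the change was not tested. Among 8 genes of plasminogen activation, a protease system that is known to activate MMP precursors, 4 rose and 3 fell in the tumours. The 3 that fell are named after their values were seen: Plau, the urokinase, averaged 21.3 CPM in LCS-driven primaries and 117 CPM in LCS lines, its receptor Plaur 45.4 CPM in LCS-driven primaries and 240 CPM in LCS lines, and the tissue activator Plat 210 CPM in LCS-driven primaries and 732 CPM in LCS lines. Of 7 protease substrates 6 rose and 0 fell, among them the small proteoglycans Bgn, at 385 CPM in LCS-driven primaries and 0.148 CPM in LCS lines, and Dcn, at 525 CPM in LCS-driven primaries and 0.464 CPM in LCS lines.

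**Figure D4:**
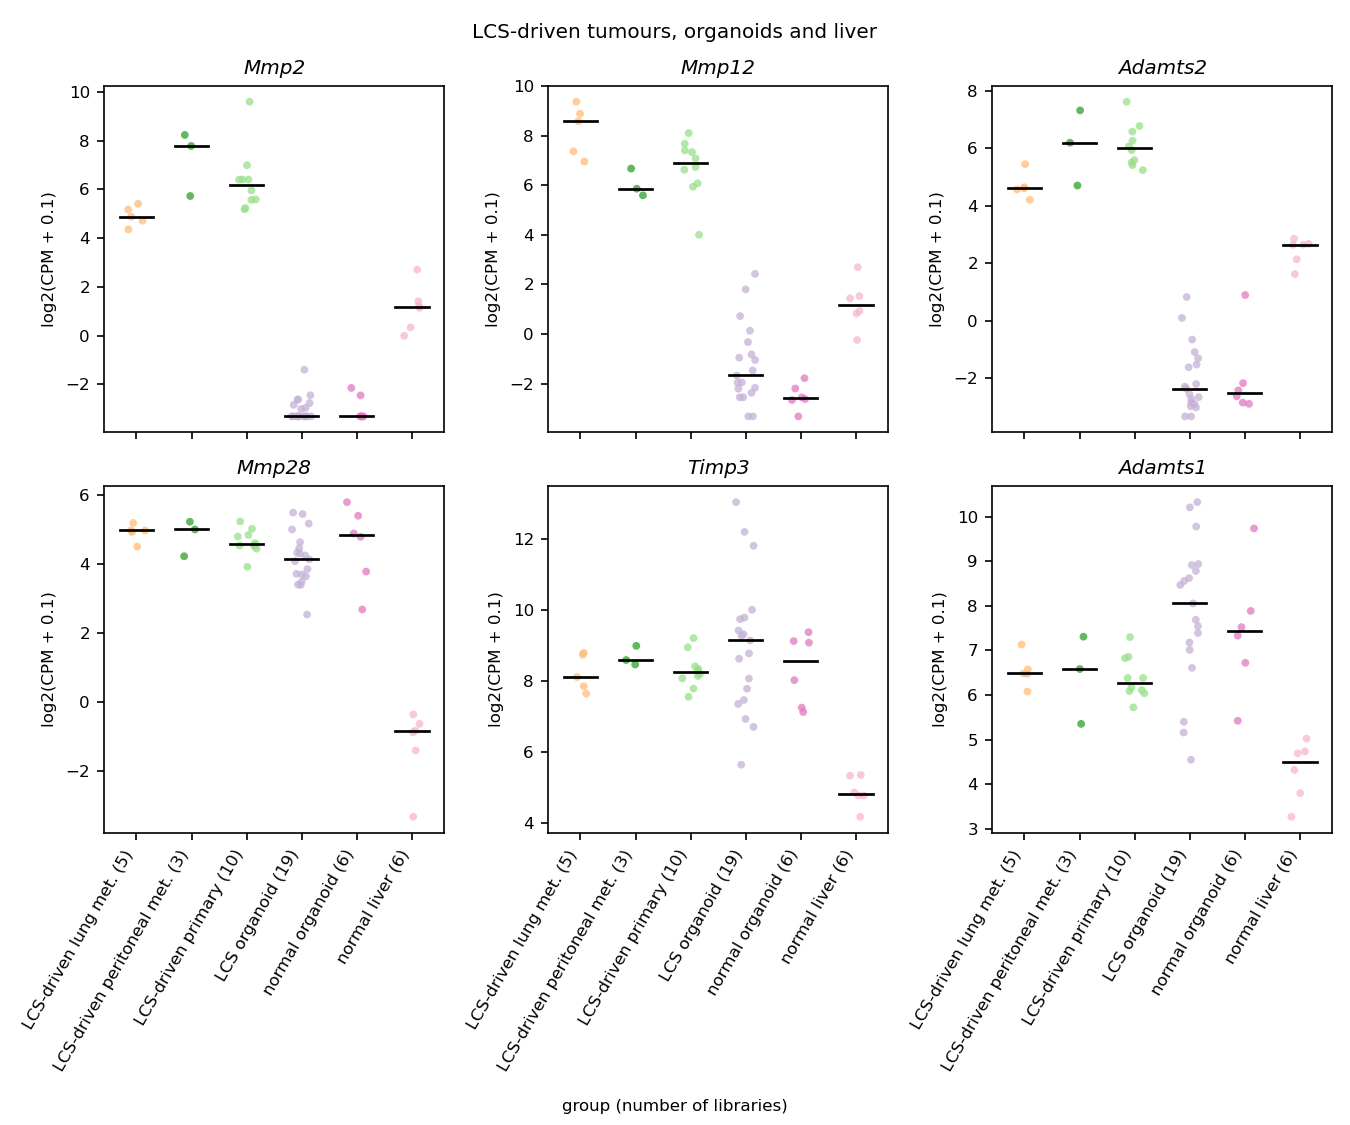
Mmp2, Mmp12, Adamts2, Mmp28, Timp3 and Adamts1 in every library of the LCS-driven tumours, LCS organoids, normal organoids and normal liver, as log2(CPM + 0.1), with a black bar at the median. Every LCS-driven tumour lies above every organoid and liver library for Mmp2, Mmp12 and Adamts2. Mmp28 is higher in all tumours and organoids than in liver, and the median of Timp3 and Adamts1 is highest in LCS organoids.

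Lung metastases of the LCS-driven tumours had 3 members higher and 10 lower than the LCS-driven primaries, of 42 that passed the filter (n = 5 and 10; 8.95% and 8.26% of all 18454 genes were called). The members' median log2 fold change was -0.71, against -0.0163 over all genes. Mmp12 had 383, 473, 165, 124 and 661 CPM in the 5 lung metastases, against 15.9, 121 and 275 CPM (lowest, median, highest) in the primaries. Metastases 1, 2 and 5 were above every primary and 3 and 4 within their range (log2 fold change 1.46 ± 0.46, edgeR adjusted p = 0.0368). Mmp9 had 31.2, 31.3, 12.8, 45.4 and 45.0 CPM in lung metastases and 5.74, 13.1 and 29.1 CPM in primaries, with metastasis 3 within the primaries' range (1.27 ± 0.35, edgeR adjusted p = 0.0192). Mmp25, the membrane-type MMP known from leukocytes, averaged 2.73 ± 0.984 CPM in lung metastases and 0.924 ± 0.423 CPM in primaries (1.55 ± 0.39, edgeR adjusted p = 0.0126).

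The members that fell in lung metastases included all 3 procollagen N-proteinases. Adamts2 averaged 26.9 ± 9.6 CPM in lung metastases and 77.7 ± 47.6 CPM in primaries (log2 fold change -1.54 ± 0.41, edgeR adjusted p = 0.0165). Adamts12 had 23.7, 23.8, 19.6, 15.1 and 9.87 CPM in lung metastases and 27.1 to 140.5 CPM in primaries, with no overlap (-1.76 ± 0.39, edgeR adjusted p = 0.00495). Timp1 had 16.1, 10.1, 6.69, 20.3 and 16.7 CPM in lung metastases and 17.6 to 190.5 CPM in primaries, where metastasis 4 alone reached the primaries' range (-2.33 ± 0.46, edgeR adjusted p = 0.00232). Adamts4 averaged 9.91 ± 3.2 CPM in lung metastases and 34.7 ± 16.4 CPM in primaries (-1.82 ± 0.40, edgeR adjusted p = 0.00471), and Mmp2 30.9 ± 8.61 CPM in lung metastases and 139 ± 226 CPM in primaries (-2.16 ± 0.72, edgeR adjusted p = 0.0463). Timp2 averaged 134 CPM in lung metastases and 119 CPM in primaries, Timp3 317 CPM in lung metastases and 334 CPM in primaries, and Mmp7 250 CPM in lung metastases and 235 CPM in primaries, none of them called.

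Substrate genes fell beside these proteases, with 4 of 7 lower and 1 higher in lung metastases. Vcan, the versican core protein, averaged 20.6 CPM in lung metastases and 149 CPM in primaries (log2 fold change -2.86 ± 0.48), and Dcn 73.0 CPM in lung metastases and 525 CPM in primaries. Of 8 plasminogen genes 0 rose and 4 fell. Fibroblast markers summed to 842 to 6132 CPM in lung metastases and 2420 to 82122 CPM in primaries, with 2 of 8 lower. Neutrophil markers summed to 200 to 941 CPM in lung metastases and 54.5 to 354 CPM in primaries, with 2 of 6 higher. Macrophage markers summed to 1091 to 4611 CPM in lung metastases and 439 to 1266 CPM in primaries, with 2 of 7 higher and 1 lower, and the highest sum was in metastasis 5, which also had the highest Mmp12. Hepatocyte markers summed to 1.8 to 502 CPM in lung metastases and 486 to 35862 CPM in primaries. Lung epithelium markers summed to 1056 to 2179 CPM in lung metastases and 4.35 to 308 CPM in primaries. None of these parts was tested. The library identifiers fall into blocks that split the groups unevenly. Lung metastases 1 and 2 share no block with an LCS-driven primary, and primaries 1 to 7 share none with an LCS-driven metastasis. With a block term the difference therefore rests on lung metastases 3 to 5 and primaries 8 to 10. With a block term 0 members were called higher and 1 lower (Adamts12), although the log2 fold changes of Mmp12 (1.94), Mmp9 (1.76), Timp1 (-2.46) and Mmp2 (-3.32) were no smaller. The block that holds lung metastases 3 to 5 and primaries 8 to 10, fitted alone, repeats that contrast and is no separate check. There 0 were called either way, with 1.91 for Mmp12, 1.73 for Mmp9 and -2.49 for Timp1. Mmp12 was not called without lung metastasis 1, 2 or 5 or without primary 10, nor Mmp9 without lung metastasis 4 or 5, nor Adamts2 without lung metastasis 2. Mmp2, Adamts3 and Adamts5 were not called without any 1 of the 5 lung metastases, nor Adamts14 and Adamts6 without any but the fourth. Adamts14 was also not called without primaries 2 and 8 (edgeR adjusted p = 0.0984) or primary 10 (0.0697).

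Peritoneal metastases of the LCS-driven tumours had 1 member higher and 0 lower than the primaries (n = 3 and 10; 0.255% and 1% of all genes were called). At an unadjusted p under 0.05, edgeR placed 3 members higher and 2 lower, beside 749 and 1494 of all 18454 genes. DESeq2 called 1 member lower. The member called was Mmp9, with 49.2, 36.1 and 106 CPM in peritoneal metastases and 5.74 to 29.1 CPM in primaries, without overlap (log2 fold change 2.23 ± 0.39, edgeR adjusted p = 0.0093). Without peritoneal metastasis 3 the difference was 1.73 and no longer called (edgeR adjusted p = 0.15), and with a block term it was 2.66 (edgeR adjusted p = 0.0911). Neutrophil markers summed to 2248, 290 and 265 CPM in peritoneal metastases 1, 2 and 3 and 54.5 to 354 CPM in primaries, with 2 of 6 called higher. Their sum was lowest in metastasis 3, which had the highest Mmp9, and their part was not tested. Mmp8 averaged 34.9 CPM in peritoneal metastases and 6.13 CPM in primaries, and Mmp13 had 5.04, 152 and 113 CPM in peritoneal metastases against 2.82 to 141 CPM in primaries, neither called. Collagenases, which include both genes, summed to 96.6, 154 and 124 CPM in peritoneal metastases 1, 2 and 3. The Mmp8 mean therefore rests mostly on peritoneal metastasis 1, the shallowest library of the series.

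PPTR metastases had 10 members higher and 3 lower than PPTR primaries, of 36 that passed the filter (n = 5 and 11; 16.2% and 17.2% of all 16246 genes were called). The 5 metastases came from 4 organs and were treated as 1 group. Both groups also split over the identifier blocks, and with a block term 9 members were called higher and 2 lower. The share of all genes called with that term is not given here. Adamts14 (edgeR adjusted p = 0.055) and Mmp27 (0.0635) were among the calls lost, and Adamts12 (0.0466) was gained. Mmp7, with the values given above, had a log2 fold change of 6.92 ± 0.98 (edgeR adjusted p = 4.63e-05). Mmp24 had 8.06, 10.5, 27.3, 10.4 and 6.01 CPM in metastases and 0.435, 0.733 and 2.53 CPM (lowest, median, highest) in primaries, without overlap (3.48 ± 0.42, edgeR adjusted p = 8.98e-06). Mmp20, enamelysin, which is known from tooth enamel, had 1.56, 1.68, 1.11, 1.26 and 0.483 CPM in the metastases. Its pooled counts were 196 in metastases and 3 in primaries, a ratio of CPM of 119 with a 95% counting interval of 40.2 to 582. Mmp2 had 71.7, 27.6, 31.4, 8.34 and 14.5 CPM in metastases and 0.643, 4.77 and 15.4 CPM in primaries, with metastases 4 and 5 within the primaries' range (2.38 ± 0.51, edgeR adjusted p = 0.00182).

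Timp2 had 70.3, 105, 45.5, 33.7 and 23.6 CPM in PPTR metastases and 8.9 to 31.9 CPM in primaries, and metastasis 5 alone overlapped (log2 fold change 1.66 ± 0.31, edgeR adjusted p = 0.000693). Adamts9 averaged 50.8 ± 13.8 CPM in metastases and 21.2 ± 19.9 CPM in primaries (1.28 ± 0.38, edgeR adjusted p = 0.0167). Timp1 had 43.0, 19.6, 27.4, 33.6 and 11.5 CPM in metastases and averaged 10.1 CPM in primaries, and was not called (edgeR adjusted p = 0.0642), while DESeq2 did call it (adjusted p = 0.0394). The 3 members that fell were Mmp19, Mmp27 and Adamts5. Mmp19 had 20.7, 38.1, 40.6, 26.6 and 27.2 CPM in metastases and 26.7, 74.1 and 98.8 CPM in primaries (-1.28 ± 0.26, edgeR adjusted p = 0.00143). Mmp27 averaged 3.57 CPM in metastases and 22.6 CPM in primaries and was not called without metastasis 1, 2, 3 or 5. Adamts5 averaged 7.41 CPM in metastases and 17.4 CPM in primaries and was not called without metastasis 2, 3, 4 or 5.

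Biliary epithelial markers moved with these members. All 5 were called higher in PPTR metastases, and their sum was 3002 to 14182 CPM in metastases and 460 to 11136 CPM in primaries, so that the groups overlapped. Epcam, an epithelial adhesion gene of bile ducts, averaged 225 CPM in metastases and 3.62 CPM in primaries. Of the 8 fibroblast markers 2 rose, and of the 7 macrophage markers 1 rose and 1 fell. The macrophage sum was 1135 to 2840 CPM in metastases and 207 to 1198 CPM in primaries. Hepatocyte markers summed to 4575 to 32562 CPM in metastases (median 21077) and 25440 to 110613 CPM in primaries (median 75889), with 0 of 5 called. The lung metastasis held 1945 CPM of lung epithelium markers, against 1.58 to 10.7 CPM in primaries. Their part was not tested. Among 7 further protease inhibitors 3 rose and 1 fell: A2m, a broad plasma protease inhibitor, averaged 186 CPM in metastases and 9.42 CPM in primaries, and Tfpi2, an inhibitor of matrix serine proteases, 11.2 CPM in metastases and 76.8 CPM in primaries.

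HBS1_F2-driven peritoneal metastases were compared with the HBS1- and HBS1_F2-driven primaries as 1 group (n = 3 and 4). No member of 34 and no gene of all 15799 was called by edgeR, 0% in each direction. At an unadjusted p under 0.05, edgeR placed 4 members higher and 0 lower, beside 816 and 540 of all genes. DESeq2 called 0 members and 120 genes higher and 45 lower. Mmp8 averaged 11 ± 8.78 CPM in metastases and 2.7 ± 1.28 CPM in primaries, Mmp9 16.2 CPM in metastases and 6.85 CPM in primaries, Mmp12 25.1 CPM in metastases and 104 CPM in primaries, and Adamts2 10.8 CPM in metastases and 34.0 CPM in primaries. Adamts1 was high in both, at 331, 276 and 450 CPM in the metastases and a mean of 325 CPM in the primaries. The 4 primaries were uneven. Procollagen N-proteinases, Adamts2 among them, summed to 93.5 and 38.6 CPM in HBS1-driven primaries and to 8.85 and 6.56 CPM in HBS1_F2-driven primaries. In the metastases they summed to 7.81, 17.4 and 11.2 CPM. Mmp7 and Mmp12 summed to 265 and 17.1 CPM in HBS1-driven primaries and to 91.2 and 49.9 CPM in HBS1_F2-driven primaries. In the metastases these genes summed to 17.5, 14.2 and 45.7 CPM.

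**Figure D5:**
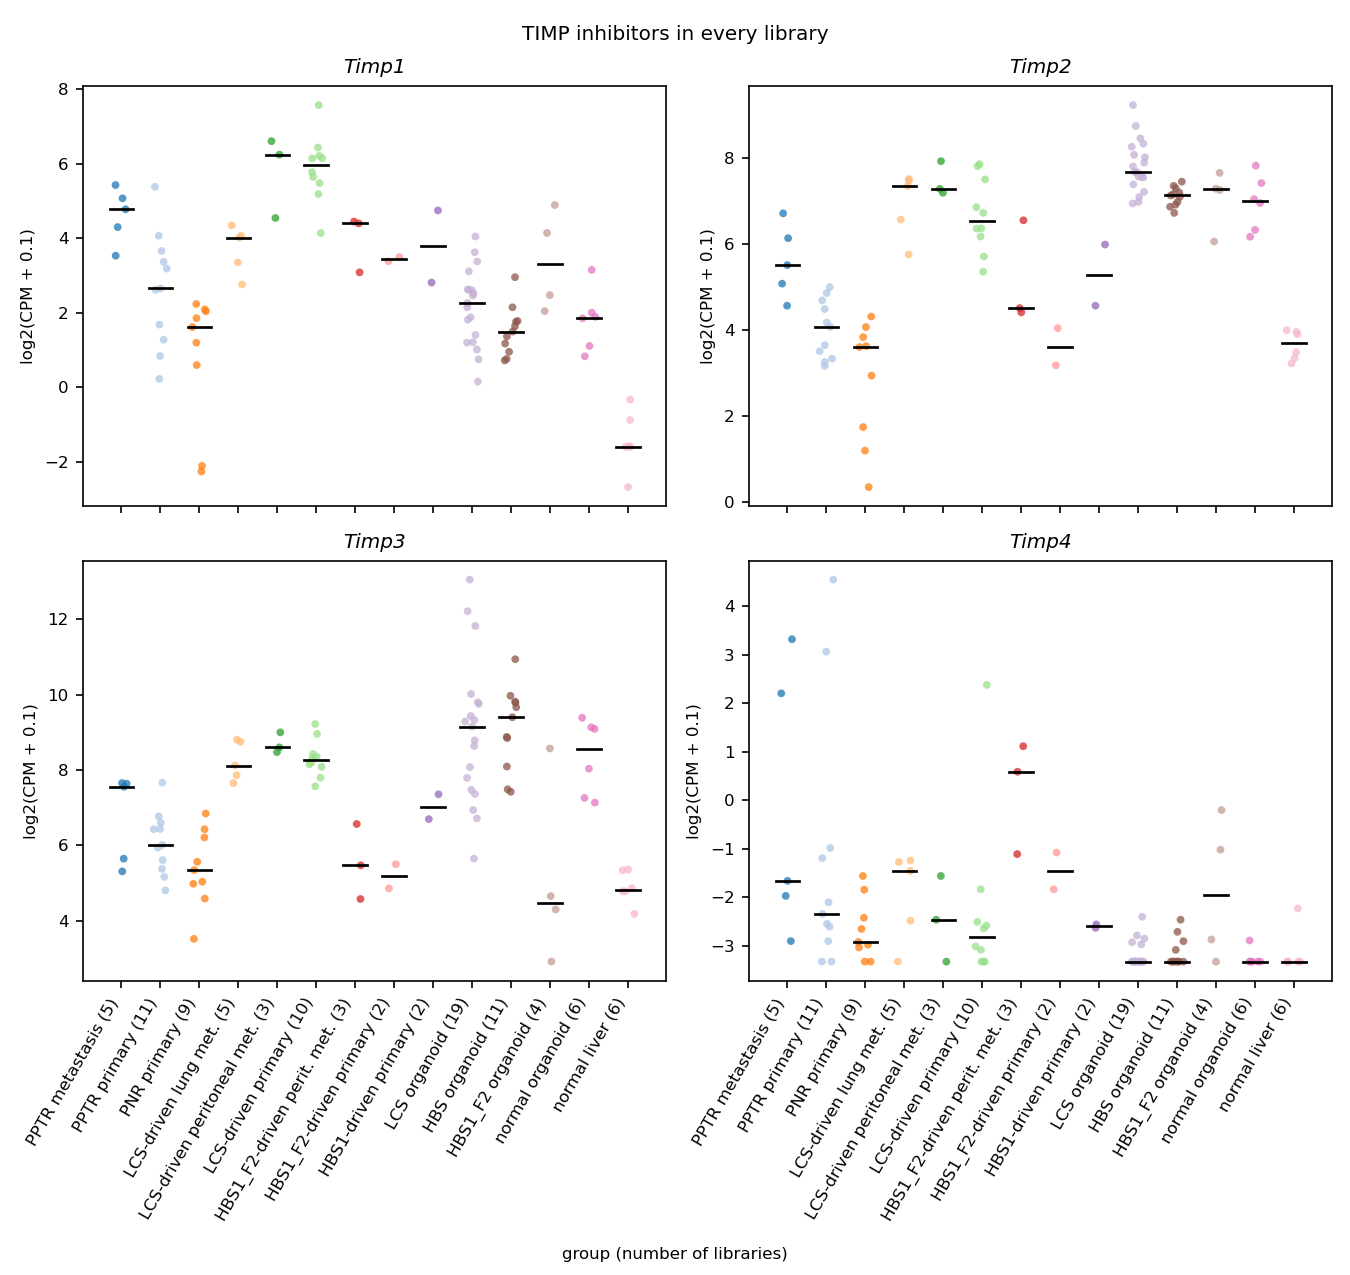
Timp1, Timp2, Timp3 and Timp4 in every library, by group, as log2(CPM + 0.1), with 1 point per library and a black bar at the median. Timp1 is high in LCS-driven primaries and peritoneal metastases and low in normal liver, and the single highest Timp2 and Timp3 libraries are LCS organoids. Timp4 is low in most libraries.

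Across all groups the 4 TIMPs ordered the samples differently. Timp1 means were 69.6 CPM in LCS-driven primaries, 65.4 CPM in LCS-driven peritoneal metastases, 27.0 CPM in PPTR metastases, 5.49 CPM in LCS organoids, 2.58 CPM in PNR primaries and 0.317 CPM in normal liver. Timp2 means ran from 246 CPM in LCS organoids to 9.94 CPM in PNR primaries, with 139 CPM in HBS organoids, 134 CPM in normal organoids and 12.8 CPM in normal liver. Timp3 ranged from 50.1 to 8470 CPM over single LCS organoid libraries. Timp4, known from heart and fat, averaged 2.96 CPM in PPTR metastases and 2.97 CPM in PPTR primaries, where a single library had 23.3 CPM, and stayed at or under 1.28 CPM in the other 12 groups. Timp1, Timp3 and Timp4 each lie within an intron of a synapsin gene on the opposite strand, and whether strand was used in counting is not given in the sources used here, so reads of the partners may be mixed.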

How the data were processed

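The authors deposited raw read counts per gene symbol for each of the 96 libraries; per the labels, total RNA was isolated with the RNeasy Micro Kit and libraries were made with a stranded total RNA protocol. STAR, BWA, HTSeq and the genome build mm9 are named in the submitters' processing notes without order or version, and use of strand in counting is not given in those sources. The 5 summary rows of each file, such as reads in no gene (9.776% to 58.27% of reads), were left out. The members and all gene lists were chosen with earlier results of these data known.

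Groups came from the titles and descriptions. Each comparison was fitted on the counts with edgeR 4.0.16 in R 4.3.3 (TMM scaling, filterByExpr with a minimum count of 10, quasi-likelihood test), with Benjamini-Hochberg adjustment over all genes tested and a call at an adjusted p under 0.05. The current and not the legacy form of that fit was taken after both outcomes had been seen. An SE is the size of the log2 fold change divided by the square root of F. LCS and HBS organoid libraries were summed per line. Lung and peritoneal metastases of LCS-driven tumours shared 1 fit with their primaries. DESeq2 1.42.0, other scalings and filters, a ribosomal share as a covariate, identifier blocks and left-out libraries were alternatives. The procedure was tested on simulated counts. Python 3.11.15, pandas 2.3.3, numpy 2.4.6 and matplotlib 3.10.9 made the tables and plots.

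Members whose mean reached 1 CPM in any group are described. In each comparison at most 8 called members each way are given with their test, the largest changes first, in addition to values of members that were not called. From other lists up to 4 called genes with at least 5 CPM in the higher group are named. Intervals and floors cover counting error only. Limits on depth are set by the shallowest library, where 1 CPM stands for about 4 reads.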

Additional observations from a re-analysis of the deposited data

Results flagged for a closer look

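Within groups of 4 to 10 libraries, 135 combinations of a member and a group with a mean of at least 5 CPM were looked at, and in 36 of them the highest or lowest library stood apart from the rest by Dixon's criterion. Chance flags about 1 in 20 groups where values are normally distributed and independent. Here CPM was taken without a log and several flags share a library, so the 36 cannot be set against that rate. No explanation was tested for any of them.

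LCS-driven primary 10 was the highest of its group for 10 members that stood apart: Adamts10 at 94.9 CPM, Adamts12 at 140.5 CPM, Adamts2 at 195.6 CPM, Adamts5 at 43.4 CPM, Adamts6 at 21.0 CPM, Adamts9 at 143 CPM, Mmp14 at 488 CPM, Mmp19 at 59.7 CPM, Mmp2 at 777 CPM and Timp1 at 190.5 CPM. The same library had the highest fibroblast marker sum of its group, 82122 CPM. LCS-driven primary 4 stood apart for the collagenase Mmp13 at 141 CPM, and LCS-driven primary 9 for the neutrophil collagenase Mmp8 at 26.0 CPM.

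Among LCS-driven lung metastases, number 4 was apart for Adamts2 at 43.4 CPM, Adamts7 at 13.2 CPM, Adamts9 at 67.3 CPM and Mmp13 at 80.4 CPM, and it held the highest fibroblast sum of the group, 6132 CPM. Number 3 had the lowest Mmp11, 3.04 CPM.

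Among PPTR metastases, the first intestinal one was apart for Adamts12 at 25.2 CPM, Adamts4 at 19.5 CPM and Mmp13 at 17.4 CPM. The lung one was apart for Adamts10 at 25.8 CPM, and the other intestinal one for Adamts6 at 8.83 CPM, Adamts7 at 23.2 CPM and Mmp24 at 27.3 CPM.

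HBS1_F2 organoid 2 had the lowest Adamts1 of its line, 37.9 CPM, while it was highest for Adamts15 at 37.1 CPM, Mmp13 at 137 CPM and Timp3 at 379.8 CPM. HBS1_F2 organoid 4 was highest for Adamts2 at 182 CPM, Adamts4 at 50.7 CPM, Mmp2 at 250.4 CPM, Mmp3 at 184.5 CPM and Mmp9 at 22.4 CPM, and had a fibroblast sum of 3619 CPM. Elsewhere, Adamts1 reached 853 CPM in normal organoid 5, Adamts15 47.3 CPM in PNR primary 8 and Adamts9 20.8 CPM in normal liver 4.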

How the results depend on the processing

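No paired analysis was possible because the labels give no replicate numbers that groups share. Of 234 counts of members called under an alternative, 202 stayed within 1.5 times the reported count and 32 did not. With DESeq2, members lower in PPTR primaries than in liver were 1 (reported 0), LCS organoids against normal organoids gave 3 higher and 1 lower (0 and 0), HBS organoids 2 lower (0) and LCS-driven peritoneal metastases 1 lower (0). With the ribosomal share as a covariate, members higher and lower against liver were 3 and 1 in PPTR (11 and 0), 0 and 0 in PNR (12 and 4) and 10 and 1 in LCS-driven primaries (32 and 4). In the last, Adamts10 reversed to -0.87 (reported 1.40), Adamts3 to -0.11 (1.14) and Mmp17 to -0.49 (1.36). Without a filter on low counts, 11 members were lower in PPTR than PNR primaries (6) and 1 higher in LCS than normal organoids (0). With closely matching lung metastases 1 and 2 summed, 4 members were lower in lung metastases (10). With 1 identifier block only, lung metastases gave 0 and 0 (3 and 10) and peritoneal metastases 0 higher (1). With a block term they gave 0 higher and 1 lower, and 0 higher.

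Leaving out 1 line or library in turn gave 0 members in LCS against normal organoids, 1 to 3 higher and 0 to 1 lower in LCS against HBS organoids, 24 to 27 higher and 2 to 3 lower in LCS-driven primaries against LCS organoids, 1 to 3 higher and 3 to 10 lower in lung metastases, 0 to 1 higher and 0 lower in peritoneal metastases, 8 to 10 higher and 1 to 2 lower in PPTR metastases, and 0 in HBS1_F2-driven metastases. Mmp25 in LCS-driven primaries against LCS organoids ranged from -0.61 to 1.69 and reversed, at 1.69, without LCS1 (reported -0.32).

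Over all genes, the calls higher and lower with the covariate were 1233 and 838 in PPTR (reported 2799 and 2246), 22 and 106 in PNR (4299 and 3454) and 1127 and 1216 in LCS-driven primaries (5895 and 4734). Without the filter they were 7117 lower in PPTR than PNR primaries (4254) and 87 and 70 in HBS against normal organoids (1 and 11). With DESeq2 they were 1082 and 830 in LCS against normal organoids (588 and 346), 163 and 206 in HBS against normal organoids (1 and 11), 1353 and 673 in LCS against HBS organoids (680 and 236), 101 and 559 in peritoneal metastases (47 and 185) and 120 and 45 in HBS1_F2-driven metastases (0 and 0). In 1 block, lung metastases gave 17 and 8 (1652 and 1525) and peritoneal metastases 0 and 0. With the block term these were 203 and 216, and 1 and 24, and with lung metastases 1 and 2 summed 994 and 789. Without LCS-driven primary 10, 96 genes were higher in peritoneal metastases (47), and without LCS-driven primaries 2 and 8, 114 were higher and 385 lower (47 and 185). Leaving out 1 library gave 272 to 933 higher and 166 to 539 lower in LCS against normal organoids, 194 to 1259 and 86 to 472 in LCS against HBS organoids, 962 to 1718 and 767 to 1990 in lung metastases, 6 to 60 and 0 to 182 in peritoneal metastases, and 0 to 10 and 0 to 3 in HBS1_F2-driven metastases.

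The legacy edgeR fit, the form not taken, gave 24 members higher in LCS-driven primaries than LCS organoids (25), 3 lower in PNR primaries than liver (4), 7 lower in lung metastases (10) and 9 higher in PPTR metastases (10), and the other counts of members were equal. Over all genes it gave 6 lower in HBS than normal organoids (11) and 23 higher in peritoneal metastases (47). Without PPTR primaries 10 and 11, Adamts9 was not called against liver (edgeR adjusted p = 0.059), nor Adamts14 and Adamts5 in PPTR metastases. The causes of these shifts were not tested. Leaving out LCS-driven primary 10, LCS-driven primaries 2 and 8 or PPTR primaries 10 and 11, summing the matching lung metastases and the legacy fit were chosen after seeing the data.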

Other observations

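Related protease genes outside the family also differed between primary tumours and normal liver. Of 7 ADAM sheddases, membrane-bound relatives of the ADAMTS proteases, 5 rose and 0 fell in LCS-driven primaries, 3 rose and 1 fell in PNR primaries and 4 rose and 0 fell in PPTR primaries. Adam8, a sheddase known from leukocytes, averaged 33.6 CPM in LCS-driven primaries, 10.4 CPM in PNR primaries, 7.48 CPM in PPTR primaries and 0.804 CPM in normal liver, and Adam12 averaged 22.8 CPM in LCS-driven primaries, 4.35 CPM in PNR primaries, 4.75 CPM in PPTR primaries and 1.08 CPM in normal liver, both called higher in each tumour group (edgeR adjusted p between 8.16e-08 and 0.0106). Of the plasminogen genes tested, 6 of 8 rose and 2 fell in LCS-driven primaries, 2 of 7 rose and 1 fell in PNR primaries, and 3 of 7 rose and 1 fell in PPTR primaries. Plat, the tissue plasminogen activator, averaged 210 CPM in LCS-driven primaries, 258 CPM in PNR primaries, 48.1 CPM in PPTR primaries and 1.21 CPM in normal liver, while its substrate Plg, which hepatocytes make, averaged 236 CPM in LCS-driven primaries, 1324 CPM in PNR primaries, 748 CPM in PPTR primaries and 2864 CPM in normal liver. Over all genes tested, 35.9% were called higher and 28.8% lower in LCS-driven primaries, 27.3% and 21.9% in PNR primaries and 18.3% and 14.7% in PPTR primaries, so several of these counts are near the share of all genes. The 3 comparisons share the liver libraries.

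HBS1_F2 organoids, a single line of 4 libraries that enters no comparison here, held the highest mean of 5 members: Adamts9 at 238 CPM, Adamts7 at 41.4 CPM, Adamts6 at 34.5 CPM, Adamts10 at 27.8 CPM and Mmp3 at 46.9 CPM. Mmp2 averaged 66.8 CPM in that line, against 0.484 CPM in HBS organoids. The means of Mmp2 and Mmp3 rest on library 4, which had 250.4 CPM of Mmp2 and 184.5 CPM of Mmp3, while the next highest libraries had 12.3 CPM of Mmp2 and 2.75 CPM of Mmp3. The fibroblast marker sum of the HBS1_F2 libraries ran from 3.39 to 3619 CPM and the macrophage marker sum from 2.47 to 572 CPM, against at most 60.4 CPM of macrophage markers in any other organoid library. Both sums were highest in library 4, and their part in these levels was not tested.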
